A study of Mus musculus with 45 samples.

Results

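The antioxidant and redox genes described here are 34 genes chosen by name from the 55357 gene identifiers of the count table: the superoxide dismutases, catalase, the glutathione peroxidases, the peroxiredoxins, the thioredoxins and their reductases, the enzymes that make and recycle glutathione, the NRF2 sensor system with enzymes it induces, the glutaredoxins, and enzymes that repair oxidised protein. All 34 names were found in the table. RNA was measured in 45 single mouse oocytes, each labelled as its own biological replicate. No animal, strain or age is named in the sources used here, so the p-values measure the spread between these oocytes.

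In the reconstituted chimeric follicles of this study, the native oocyte of a follicle was replaced by another oocyte, the follicle was cultured, and RNA of the new oocyte was sequenced afterwards. The oocyte groups were AY (aged oocytes with young somatic cells, n = 6), AA (aged oocytes with aged somatic cells, n = 12), YY (young oocytes with young somatic cells, n = 11), in vitro young (oocytes of young mice cultured in vitro, n = 8) and in vivo young (oocytes of young mice without culture, n = 8). The groups ask how oocyte age and somatic cell age each bear on the oocyte's RNA, with young oocytes outside chimeric follicles as controls.

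Libraries held 418703 to 2201980 counts. All 10 oocyte marker genes were detected in each group, with summed levels of 12775 to 24457 unscaled CPM (each count divided by the library total and put on a common scale) per library. The group means of that sum were 17626 CPM in AY, 15154 CPM in AA, 14907 CPM in YY, 19908 CPM in in vitro young and 20132 CPM in in vivo young oocytes. The library numbers in the labels do not interleave between groups, and the YY libraries form a pair of ranges (S198 to S202, n = 5, and S225 to S231, n = 6). The controls also have gaps in their numbers (in vivo young S17 to S18 and S71 to S77, in vitro young S128 to S129, S148 to S149 and S162 to S165). So does AY, with S234 (replicate 1) apart from S240 to S244. None of these groups was split. Anything that changed with those ranges cannot be told apart from the groups, so the member calls against YY are also given for each YY range. The summed level of 12 granulosa and cumulus markers was 829.8 to 1398 CPM in AY, 650.6 to 1193 CPM in AA, 540.6 to 828.5 CPM in YY, 550.2 to 1039 CPM in in vitro young and 436 to 955 CPM in in vivo young oocytes. Serpine2 made up most of it. Without Serpine2 the ranges were 71.5 to 208 CPM in AY, 73.8 to 257 CPM in AA, 60.9 to 104 CPM in YY, 63.0 to 122.5 CPM in in vitro young and 48.4 to 128.97 CPM in in vivo young oocytes. Amh was at 0 in every group, and Foxl2 was at 0 in YY, in vitro young and in vivo young oocytes. The 8 theca and stroma markers summed to at most 9.74 CPM and the 6 immune markers to at most 10.2 CPM in any library. The 8 endothelium and blood markers reached up to 125.8 CPM, with means of 51.9 CPM in AY, 73.5 CPM in AA and 59.8 CPM in YY oocytes.

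Cells turn superoxide into hydrogen peroxide with superoxide dismutases and remove the peroxide with catalase, glutathione peroxidases and peroxiredoxins. Thioredoxin and glutathione supply the electrons, and their own reductases draw on NADPH. Oocytes store glutathione, whose synthesis is limited by glutamate-cysteine ligase, an enzyme of a catalytic subunit (Gclc) and a modifier subunit (Gclm). The transcription factor NRF2 (Nfe2l2), held back by KEAP1, is known to induce many of these genes through the antioxidant response element.

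The core of that element, TGACNNNGC, was searched for on both strands of RefSeq promoter windows (mouse build GRCm38.p6) that run from 250 bases before to 50 bases after each gene's start. It was present in 6 of the 29 members that have a window (20.7%), against 17.1% of 6285 genes that passed the low-count filter and have a window and 14% of all 27025 genes with one. Among the tested members it was present in 5 of 20 with a window (25%), and Gclc was not searched because it has no window. The 5 members with a copy wholly upstream of the start are printed below because Gclm and Sod1, 2 of the 3 members that were lower in AA than in YY oocytes, are among them beside 3 that were not called. Each sequence is given 5′ to 3′ on the gene's own strand, with the core in capitals. The core of Nfe2l2 reads along the gene's strand and the others read on the opposite strand. A match of letters is no evidence of binding.

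Gclm: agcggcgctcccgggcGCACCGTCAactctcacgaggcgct
Sod1: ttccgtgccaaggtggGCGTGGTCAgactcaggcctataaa
Nfe2l2: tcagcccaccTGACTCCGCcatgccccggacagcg
Prdx1: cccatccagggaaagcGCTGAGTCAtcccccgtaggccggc
Txnrd1: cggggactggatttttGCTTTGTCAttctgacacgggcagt

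These stretches lie at chr3:122245407-122245447 for Gclm, chr16:90220690-90220730 for Sod1, chr2:75704879-75704913 (minus strand) for Nfe2l2, chr4:116685450-116685490 for Prdx1 and chr10:82859098-82859138 for Txnrd1. The core sits 134 bases upstream of the start in Gclm, 56 in Sod1, 240 in Nfe2l2, 133 in Prdx1 and 92 in Txnrd1. Srxn1 (sulfiredoxin, which repairs over-oxidised peroxiredoxins) was the remaining member with a match, 29 bases downstream of its start.

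Transcripts of the 34 genes covered a wide range of levels. To compare genes, counts were divided by the length of each gene's exons and scaled to a common total (TPM). That length covers all annotated exons of a gene, whether or not oocytes use them, so ranks and shares depend on it. In counts alone Glrx (58576) stood above Prdx1 (43380). Over the 45 oocytes the cytosolic peroxiredoxin Prdx1 averaged 831 TPM, the cytosolic glutaredoxin Glrx 638 TPM and the peroxiredoxin Prdx2 524 TPM. These 3 genes together made up 67.4% of the list's summed TPM. By role, the 6 peroxiredoxins made up 52.8%, the 4 glutaredoxins 24.1%, both thioredoxins together 7.82%, the 5 glutathione peroxidases 6.82% and the superoxide dismutases 3.21%. The 4 genes of glutathione synthesis and recycling came to 0.465% and catalase (Cat), which splits hydrogen peroxide in peroxisomes, to 0.0251%.

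**Figure D1:**
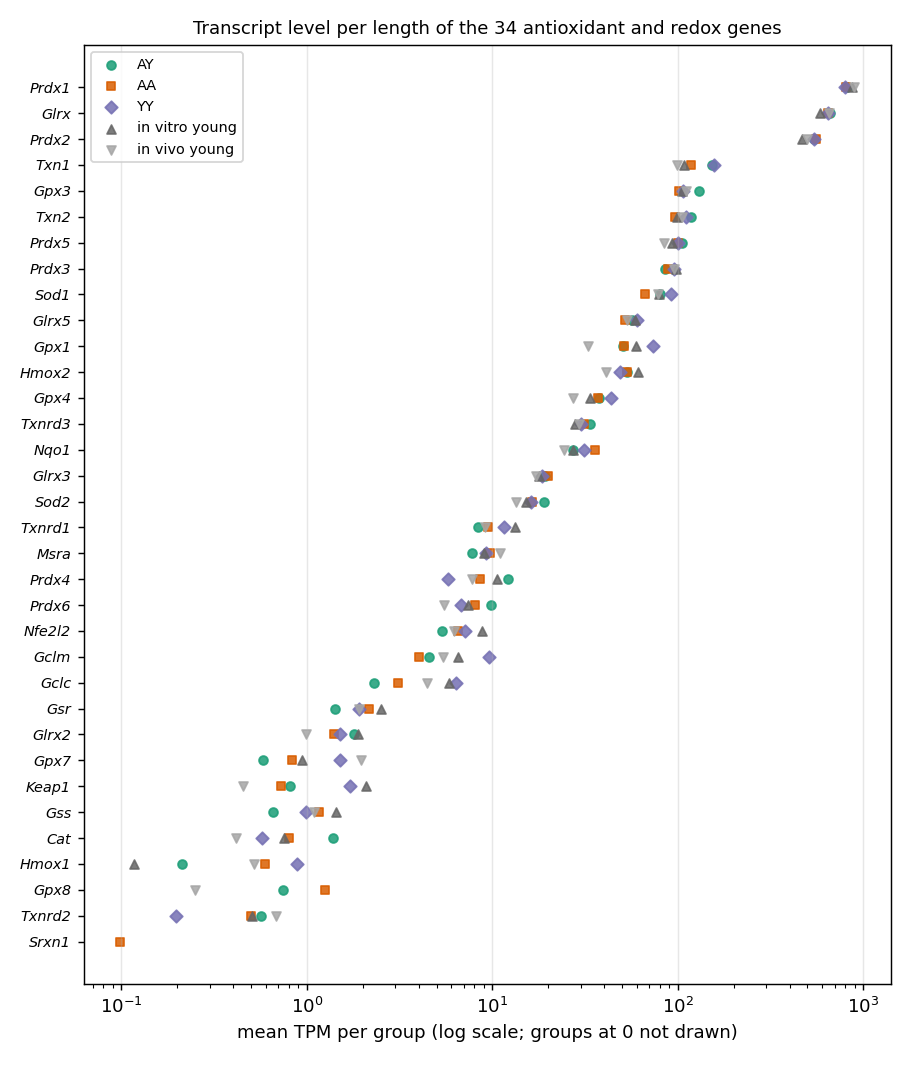
Mean level per length of each of the 34 genes (rows, ordered by their mean over 45 oocytes) in TPM on a log axis, with 1 marker for each of the 5 oocyte groups. Prdx1, Glrx and Prdx2 stood highest at 831, 638 and 524 TPM, and group means spread most among the genes of a few counts at the bottom.

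Between Prdx2 and the scarce members lay a middle band. Cytosolic thioredoxin Txn1 averaged 127 TPM, the secreted glutathione peroxidase Gpx3 109 TPM, mitochondrial thioredoxin Txn2 105 TPM, Prdx5 96.9 TPM, mitochondrial Prdx3 92.7 TPM and the cytosolic copper-zinc superoxide dismutase Sod1 78.9 TPM. The mitochondrial manganese superoxide dismutase Sod2 averaged 16.0 TPM. Gclm averaged 6.13 TPM, Gclc 4.51 TPM and Nfe2l2 6.85 TPM. The list summed to 3047 ± 148.2 TPM in AY (n = 6), 2938 ± 102 TPM in AA (n = 12), 3034 ± 274.2 TPM in YY (n = 11), 2868 ± 195 TPM in in vitro young (n = 8) and 2907 ± 181 TPM in in vivo young oocytes (n = 8; SD throughout), so the group means of the sum differed by less than the SD of YY.

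The remaining comparisons use TMM-scaled CPM within a gene. Of the 34 members, 23 passed the low-count filter and were tested, and 11 did not. Log2 fold changes are given ± SE with p-values from edgeR's quasi-likelihood test, adjusted over all genes tested with the Benjamini-Hochberg method. A gene was called at an adjusted p under 0.05.

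In aged oocytes with aged somatic cells, 3 members were called lower than in young oocytes with young somatic cells and 0 higher: the glutamate-cysteine ligase modifier subunit Gclm at about 0.449-fold of YY, Sod1 at 0.766-fold, and the catalytic subunit Gclc at 0.486-fold. Gclc reached the level of the low-count filter in exactly the 6 libraries required, 5 of them YY, and was not called without that filter (edgeR adjusted p = 0.0835). Gclm reached that level in 11 libraries, 7 of them YY, so its entry into the test also depended on YY. It was still called without that filter. Over all 8533 genes tested, 27.5% were called in AA against YY (14.7% lower and 12.8% higher), so 3 of 23 members (13.0%) is no larger a share than the background. The median log2 fold change of the 23 members was 0.01, against -0.01 over all genes.

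Gclm, the modifier subunit (ENSMUSG00000028124, mm39 chr3:122039206-122064382), ranged over 3.81 to 21.2 CPM with a median of 9.51 in AA oocytes and over 9.77 to 43.6 CPM with a median of 26.5 in YY oocytes. All 12 AA oocytes lay below the YY median, and 6 of them lay below the lowest YY oocyte, while the groups overlapped between those bounds. Means were 10.5 ± 4.89 CPM in AA (SD, n = 12) and 23.5 ± 12.7 CPM in YY (SD, n = 11), a log2 fold change of -1.15 ± 0.28 (edgeR adjusted p = 0.00209). Reads of Gclm could be shared with the overlapping genes Gm17494 and Gm6061, which together held 78 counts against 671 for Gclm.

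Gclc, the catalytic subunit (ENSMUSG00000032350, mm39 chr9:77661817-77701768), was scarcer in reads. It ranged over 0.768 to 14.2 CPM with a median of 3.39 in AA oocytes and over 0 to 21.2 CPM with a median of 9.06 in YY oocytes. Of the 12 AA oocytes, 11 lay below the YY median, and the AA range lay inside that of YY. Means were 4.88 ± 3.85 CPM in AA (SD, n = 12) and 9.37 ± 6.22 CPM in YY (SD, n = 11), with a log2 fold change of -1.04 ± 0.40 (edgeR adjusted p = 0.0468). Of the 6 libraries in which it reached the level of the filter, 0 were AY, 1 was AA and 5 were YY. Gclm reached that level in 2 AY, 2 AA and 7 YY libraries. Of the 23 fits that left out 1 library, Gclc was called in 10, was below the filter in 6, and had an edgeR adjusted p of up to 0.0887 without AA replicate 1, 5, 6, 7, 9, 11 or 12. The call was also lost with a stricter filter (edgeR adjusted p = 0.0551) and with limma voom and quality weights (adjusted p = 0.101).

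Sod1 (ENSMUSG00000022982, mm39 chr16:90017642-90023218) differed by less but was measured on more counts. It ranged over 83.0 to 158 CPM with a median of 103 in AA oocytes and over 81.5 to 200.8 CPM with a median of 142.0 in YY oocytes. AA oocytes lay below the YY median in 11 of 12 cases, and the AA values fell inside the YY range. Means were 110.4 ± 22.4 CPM in AA (SD, n = 12) and 142.9 ± 42.8 CPM in YY (SD, n = 11), a log2 fold change of -0.38 ± 0.13 (edgeR adjusted p = 0.0246). The call was lost when YY replicate 7 or YY replicate 10 was left out, with an adjusted p of up to 0.0635. The gene overlaps Scaf4, which held 1024 counts against 5292 for Sod1, and the sources used here do not say whether counting used strand.

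The differences depended on which YY libraries stood for young oocytes. Gclm averaged 15.7 CPM in YY libraries S198 to S202 and 30.0 CPM in S225 to S231, Gclc 6.01 CPM in S198 to S202 and 12.2 CPM in S225 to S231, and Sod1 109.7 CPM in S198 to S202 and 170.5 CPM in S225 to S231. Against S198 to S202 alone, 0 of the members were called, where 451 of all genes were called in place of 2348 with all YY libraries. In that fit Gclm had a log2 fold change of -0.49 (edgeR adjusted p = 0.481), and Sod1 one of 0.01 (edgeR adjusted p = 0.975). Gclc did not pass the filter against either range alone. Against S225 to S231 alone, 4 members were lower: Gclm, Sod1, Txn1 and Glrx5 (a mitochondrial glutaredoxin of iron-sulfur cluster assembly). Over all genes, the alternative fits, that one included, called at most 3151. The main fit called 27.5% of all genes, so these 4 members are not read as an excess over the background. The 23 fits that left out 1 library called 1961 to 2514 of all genes. Among them the fewest member calls came without YY replicate 10, when 1 member (Gclm) was called. A limma fit that treated libraries of a group with the same on or off pattern of 11 all-or-nothing genes as related called 0 members, with adjusted p = 0.0933 for Gclm, 0.166 for Gclc and 0.195 for Sod1. That fit also called fewer of all genes than the main fit, as given in the last section. Of 5 tested granulosa markers, 3 were also called higher in AA than in YY oocytes, where 12.8% of all genes were. Estimates were above 0 for 4 of the 5 markers and below 0 for 1, at -0.22. Inha averaged 49.2 CPM (AA) against 6.51 CPM (YY) (log2 fold change 2.78 ± 0.49, edgeR adjusted p = 1.28e-04). The part of these markers in the member differences was not tested. Against S198 to S202 alone 0 of the 5 granulosa markers were called, with an edgeR adjusted p of 0.0543 for Inha, and 0 were called in the limma fit with related libraries. Among the oocyte markers, Zp1 (not against S198 to S202 alone, edgeR adjusted p = 0.1005) and Zp2 were higher in AA than in YY, while the germ cell RNA-binding protein Dazl averaged 492 CPM in AA and 859 CPM in YY with no overlap (log2 fold change -0.81 ± 0.09).

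**Figure D2:**
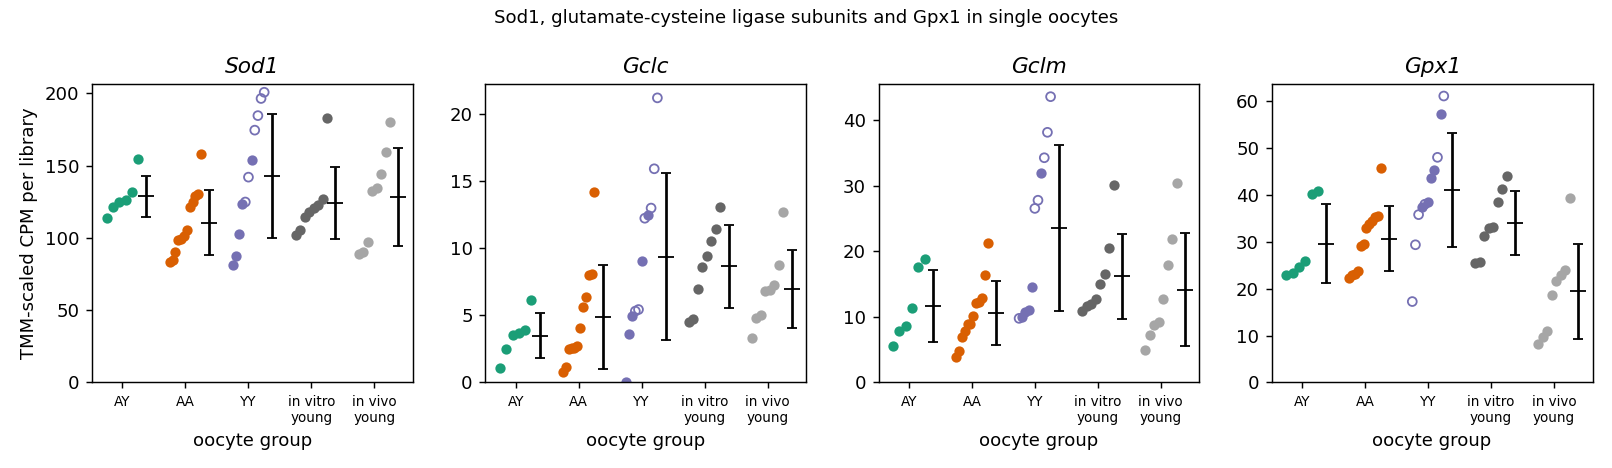
TMM-scaled CPM of Sod1, Gclc, Gclm and Gpx1 (1 panel each) in every oocyte of the 5 groups, as points, with the mean and SD as a bar and whiskers. Open circles are YY libraries S225 to S231 and filled YY points are S198 to S202. Sod1 averaged 110.4 CPM in AA and 142.9 CPM in YY, and the open circles hold the highest YY values of Sod1, Gclc and Gclm.

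Beyond the called members, Gpx1 and Txn1 also had unadjusted p-values under 0.05 in AA against YY, which makes 5 of 23 members against 38% of all genes. Gpx1, a cytosolic glutathione peroxidase, averaged 30.7 ± 7.02 CPM in AA and 41.1 ± 12.2 CPM in YY oocytes, with a log2 fold change of -0.43 ± 0.17 (edgeR adjusted p = 0.0502). Txn1 averaged 51.6 ± 13.4 CPM in AA and 64.1 ± 19.7 CPM in YY, with a log2 fold change of -0.33 ± 0.15 (edgeR adjusted p = 0.1002). Gpx1 did not have the split of the other genes within YY: it averaged 44.4 CPM in S198 to S202 and 38.3 CPM in S225 to S231. DESeq2 called 4 members, the 3 above and Gpx1, and scaling by library totals in place of TMM called 5, with Txn1 added. Over all genes these fits called at most 3151, beside 2348 (27.5%) in the main fit. The added member calls are therefore not read as an excess over the background.

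The abundant peroxiredoxins and glutaredoxin were not called in AA against YY, and their intervals were narrow. Prdx1 ranged over 907 to 1205 CPM with a median of 1005 in AA oocytes and over 691 to 1309 CPM with a median of 843 in YY oocytes, and the AA range lay inside that of YY. Its log2 fold change was 0.09, with an approximate 95% interval of -0.08 to 0.26. All 12 AA oocytes lay above the YY median of Prdx1. Within YY, Prdx1 averaged 839 CPM in S198 to S202 and 1047 CPM in S225 to S231, so the interval rests on unlike YY ranges. Glrx averaged 1481 ± 83.4 CPM in AA and 1379 ± 128.2 CPM in YY, with a log2 fold change of 0.10 (interval -0.03 to 0.22). Prdx2 averaged 704.6 ± 49.2 CPM in AA and 647 ± 37.4 CPM in YY, with 8 of 12 AA oocytes above the highest YY oocyte and a log2 fold change of 0.12 (interval -0.0024 to 0.23, edgeR adjusted p = 0.152). Prdx2-ps1, a pseudogene of Prdx2, held 2749 counts against 26780 for Prdx2.

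**Figure D3:**
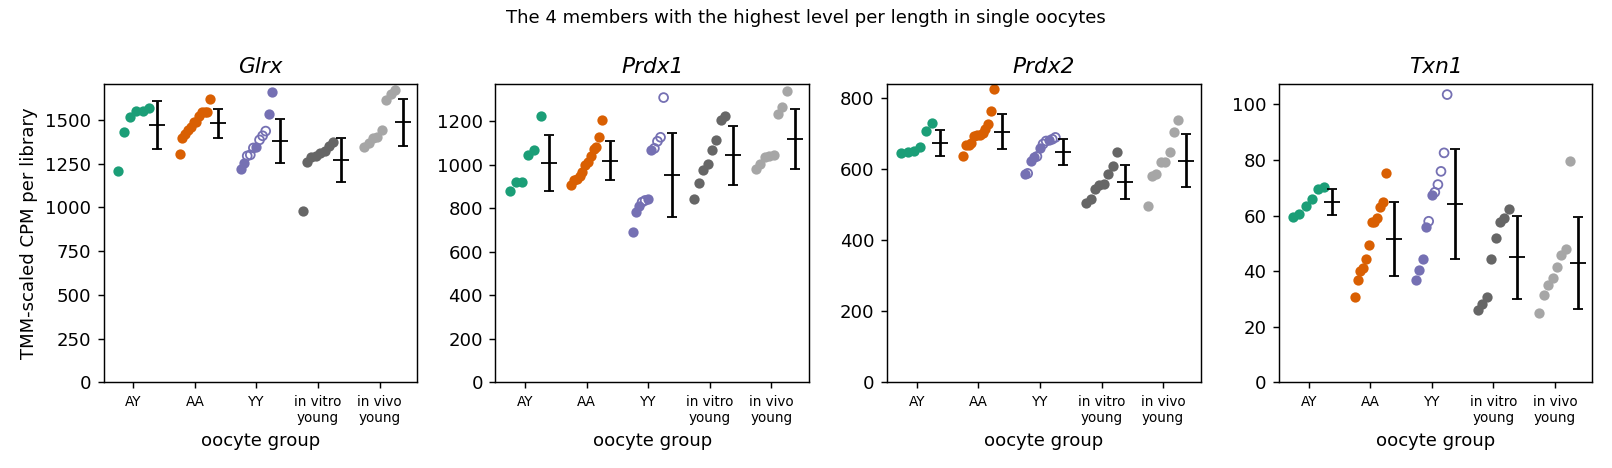
TMM-scaled CPM of Glrx, Prdx1, Prdx2 and Txn1 (1 panel each) in every oocyte of the 5 groups, with mean and SD as a bar and whiskers and YY libraries S225 to S231 as open circles. The 3 abundant genes form tight clusters in AA (Glrx mean 1481 CPM, Prdx2 704.6 CPM), while Txn1 spreads from 30.6 to 75.3 CPM in AA and from 37.0 to 103.5 CPM in YY.

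Of the 23 tested members, 21 had an approximate 95% interval within 2-fold of no change in AA against YY, Gclm and Gclc being the exceptions, and 14 lay within 1.5-fold. No mitochondrial member was called. Sod2 had a log2 fold change of 0.09 (interval -0.17 to 0.35), Prdx3 -0.02 (-0.33 to 0.28), Txn2 -0.12 (-0.34 to 0.09) and Glrx5 -0.14 (-0.41 to 0.13). Nfe2l2 itself averaged 10.3 ± 4.83 CPM in AA and 10.5 ± 5.36 CPM in YY, with a wide interval of -0.68 to 0.56. Nqo1, a quinone reductase often read as an NRF2 target, averaged 23.2 ± 6.53 CPM in AA and 18.9 ± 4.98 CPM in YY, with a log2 fold change of 0.28 ± 0.19 (edgeR adjusted p = 0.292). In 7 of the 12 AA oocytes Nqo1 was above the highest YY oocyte.

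In AY against AA, where the labels differ in somatic cell age alone, 0 of 23 members were called, against 6.59% of all genes (3.52% higher and 3.07% lower), and 1 had an unadjusted p under 0.05, against 21.9% of all genes. DESeq2 also called 0. The member median log2 fold change was -0.01, against 0.0016 over all genes. Pecam1, the tested marker of endothelium and blood, averaged 46.6 CPM in AY and 72.4 CPM in AA (-0.67 ± 0.22, edgeR adjusted p = 0.0523), and Dazl was higher in AY (0.41 ± 0.10, edgeR adjusted p = 0.0145), though not in the limma fit with related libraries (adjusted p = 0.0905).

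Gclm ranged over 5.57 to 18.8 CPM with a median of 10.0 in AY oocytes, beside the 3.81 to 21.2 CPM of AA given above. The AY range lay inside that of AA. The means were 11.6 ± 5.45 CPM in AY (SD, n = 6) and 10.5 ± 4.89 CPM in AA, with a log2 fold change of 0.19 ± 0.36 (edgeR adjusted p = 0.804). The interval of -0.51 to 0.90 includes no change.

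Gclc ranged over 1.04 to 6.17 CPM with a median of 3.62 in AY oocytes, again inside the AA range. Means were 3.47 ± 1.70 CPM in AY and 4.88 ± 3.85 CPM in AA, with a log2 fold change of -0.39 and an interval of -1.48 to 0.69. At these counts neither a fall nor a rise of 1.5-fold could be told from no change. Sod1 ranged over 114 to 154.5 CPM with a median of 125 in AY oocytes. All 6 AY oocytes lay above the AA median of 103 CPM and none above the highest AA oocyte. Sod1 averaged 128.7 ± 13.9 CPM in AY and 110.4 ± 22.4 CPM in AA, with a log2 fold change of 0.23 ± 0.16 (edgeR adjusted p = 0.415).

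Among the uncalled members with the smallest p-values, most had every AY oocyte on 1 side of the AA median. Choosing members by their p-values makes this likely, so it adds no evidence of a difference. Txn1 averaged 64.9 ± 4.54 CPM in AY and 51.6 ± 13.4 CPM in AA (log2 fold change 0.33 ± 0.18, edgeR adjusted p = 0.270), with 6 of 6 AY oocytes above the AA median. Gpx3 averaged 96.0 ± 21.0 CPM in AY and 76.2 ± 25.5 CPM in AA (0.33 ± 0.18, edgeR adjusted p = 0.268), also with 6 of 6 above. Nqo1 averaged 17.1 ± 4.45 CPM in AY and 23.2 ± 6.53 CPM in AA (-0.45 ± 0.24, edgeR adjusted p = 0.261), with 6 of 6 below. Txn2 had the smallest p of the members, 0.0464 unadjusted, and averaged 200.6 ± 45.04 CPM in AY and 168 ± 27.5 CPM in AA (0.27 ± 0.13, edgeR adjusted p = 0.219).

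**Figure D4:**
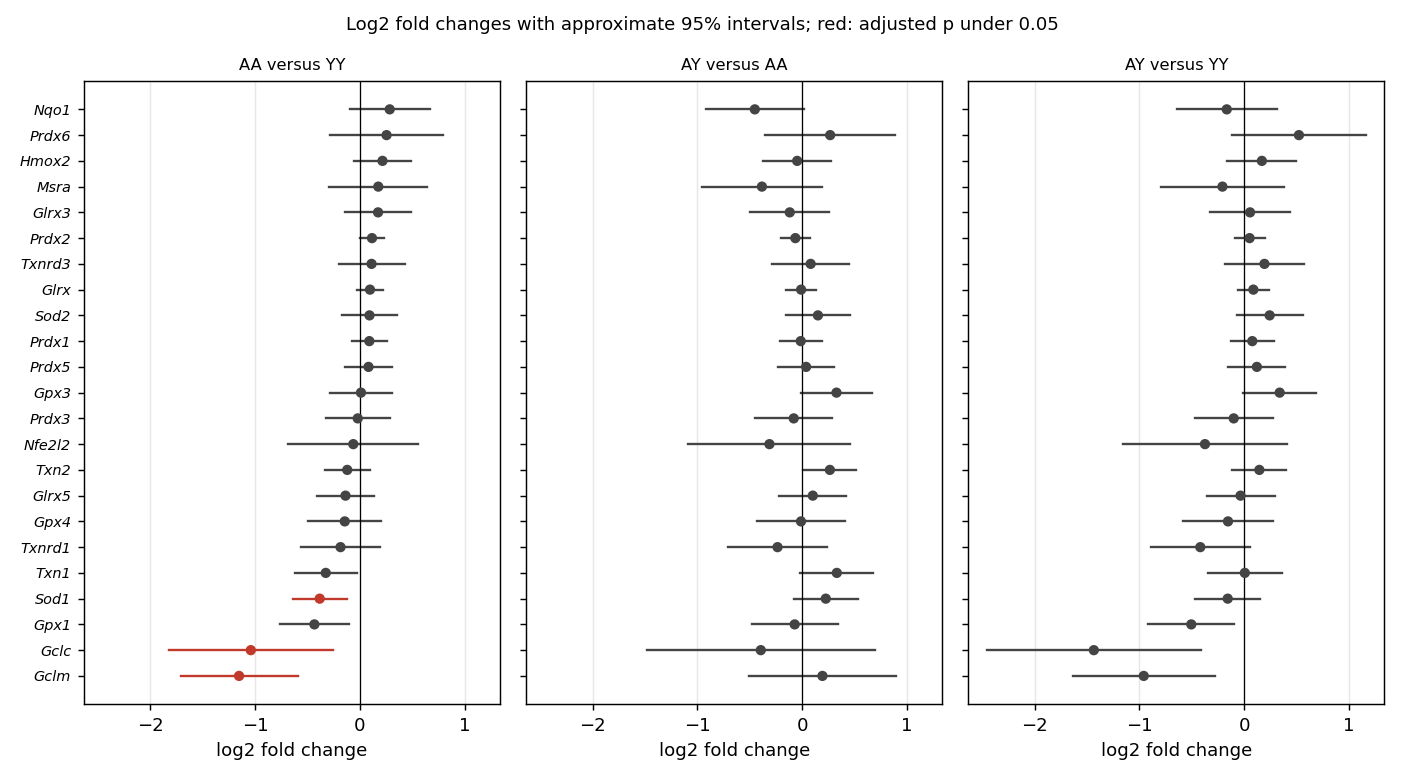
Log2 fold change (x axis) with approximate 95% interval of the 23 tested members (rows, ordered by AA versus YY) in AA versus YY, AY versus AA and AY versus YY, 1 panel each. Red marks an adjusted p under 0.05, which only Sod1, Gclc and Gclm reached, in AA versus YY. The AA and YY oocytes each enter 2 of the 3 panels, as do the AY oocytes.

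In AY against YY, where the labels differ in oocyte age alone, 0 of 23 members were called, against 1.62% of all genes (0.715% higher and 0.902% lower), and 3 had an unadjusted p under 0.05 (Gclc, Gclm and Gpx1), against 14.1% of all genes. DESeq2 also called 0. The member median log2 fold change was 0.01, against -0.01 over all genes. This comparison shares its YY oocytes with AA against YY, so the values stand side by side and are no independent evidence.

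Gclm averaged 11.6 ± 5.45 CPM in AY and 23.5 ± 12.7 CPM in YY, with 6 of 6 AY oocytes below the YY median and a log2 fold change of -0.96 ± 0.35 (edgeR adjusted p = 0.171). Gclc averaged 3.47 ± 1.70 CPM in AY and 9.37 ± 6.22 CPM in YY, with 6 of 6 AY oocytes below the YY median and a log2 fold change of -1.44 ± 0.52 (edgeR adjusted p = 0.171). The approximate 95% intervals were -1.64 to -0.28 for Gclm and -2.45 to -0.42 for Gclc. Gclc reached the level of the low-count filter in 0 AY and 5 YY libraries, and Gclm in 2 AY and 7 YY libraries. Both were thus admitted to the test mainly through YY, where they were high. Their counts below the YY median, intervals and unadjusted p-values are therefore no independent support for a difference. Gpx1 averaged 29.7 ± 8.50 CPM in AY and 41.1 ± 12.2 CPM in YY (-0.51 ± 0.21, edgeR adjusted p = 0.255). Sod1 averaged 128.7 ± 13.9 CPM in AY and 142.9 ± 42.8 CPM in YY (-0.16 ± 0.16, edgeR adjusted p = 0.715). Against YY libraries S225 to S231 alone, Gclm was called lower in AY, where 847 of all genes were called, and against S198 to S202 alone 0 members were called. Of 5 tested granulosa markers, Inha (2.63 ± 0.55) and Serpine2 (0.76 ± 0.14) were called higher in AY than in YY. Inha was not called against S198 to S202 alone (edgeR adjusted p = 0.157). Neither was called in the limma fit with related libraries (adjusted p = 0.436 for Inha and 0.0648 for Serpine2). Estimates were above 0 for 3 of the 5 markers and below 0 for 2, down to -0.44. The part of these markers in the member values was not tested.

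Putting young oocytes into a chimeric follicle, compared with culture alone, gave 0 called members of 23, against 2.48% of all genes (0.777% higher and 1.70% lower), and 3 with an unadjusted p under 0.05, against 16.6% of all genes. DESeq2 also called 0. Txn1 averaged 64.1 ± 19.7 CPM in YY and 45.1 ± 14.95 CPM in in vitro young oocytes (log2 fold change 0.52 ± 0.21, edgeR adjusted p = 0.172). Within YY, Txn1 averaged 49.0 CPM in S198 to S202 and 76.6 CPM in S225 to S231. It was called higher in YY when S225 to S231 alone stood for that group, where 803 of all genes were called, while 0 members were called with S198 to S202 alone. The oocyte markers Zp2 (-0.88 ± 0.12), Gdf9 (-0.60 ± 0.11) and Zp3 (-0.42 ± 0.10) were lower in YY than in in vitro young oocytes, Zp3 not in the limma fit with related libraries (adjusted p = 0.0624). Prdx2 averaged 647 ± 37.4 CPM in YY and 564 ± 47.6 CPM in in vitro young oocytes (0.20 ± 0.08, edgeR adjusted p = 0.170), with all 11 YY oocytes above the in vitro young median. Hmox2, the constitutive heme oxygenase, averaged 42.1 ± 12.8 CPM in YY and 53.7 ± 8.53 CPM in in vitro young oocytes (-0.36 ± 0.17, edgeR adjusted p = 0.285). Hmox2 overlaps Cdip1 and Gm15859, which together held 1361 counts against 1929 for Hmox2.

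Culture itself, in vitro young against in vivo young, gave 0 called members of 23, against 0.137% of all genes (0.126% higher and 0.0114% lower), and 4 with an unadjusted p under 0.05, against 9.65% of all genes. DESeq2 also called 0. Gpx1 was the member with the smallest p: it averaged 34.1 ± 6.81 CPM in in vitro young and 19.4 ± 10.2 CPM in in vivo young oocytes, with 8 of 8 cultured oocytes above the in vivo median (log2 fold change 0.75 ± 0.24, edgeR adjusted p = 0.207). Hmox2 (0.50 ± 0.19, edgeR adjusted p = 0.341) and the cytosolic thioredoxin reductase Txnrd1 (0.51 ± 0.20, edgeR adjusted p = 0.376) had estimates above 0. Glrx averaged 1272 ± 125 CPM in in vitro young and 1486 ± 136 CPM in in vivo young oocytes, with 8 of 8 cultured oocytes below the in vivo median (-0.21 ± 0.08, edgeR adjusted p = 0.376). Gclm averaged 16.2 ± 6.48 CPM in in vitro young and 14.2 ± 8.67 CPM in in vivo young oocytes, between the AA and the YY means.

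**Figure D5:**
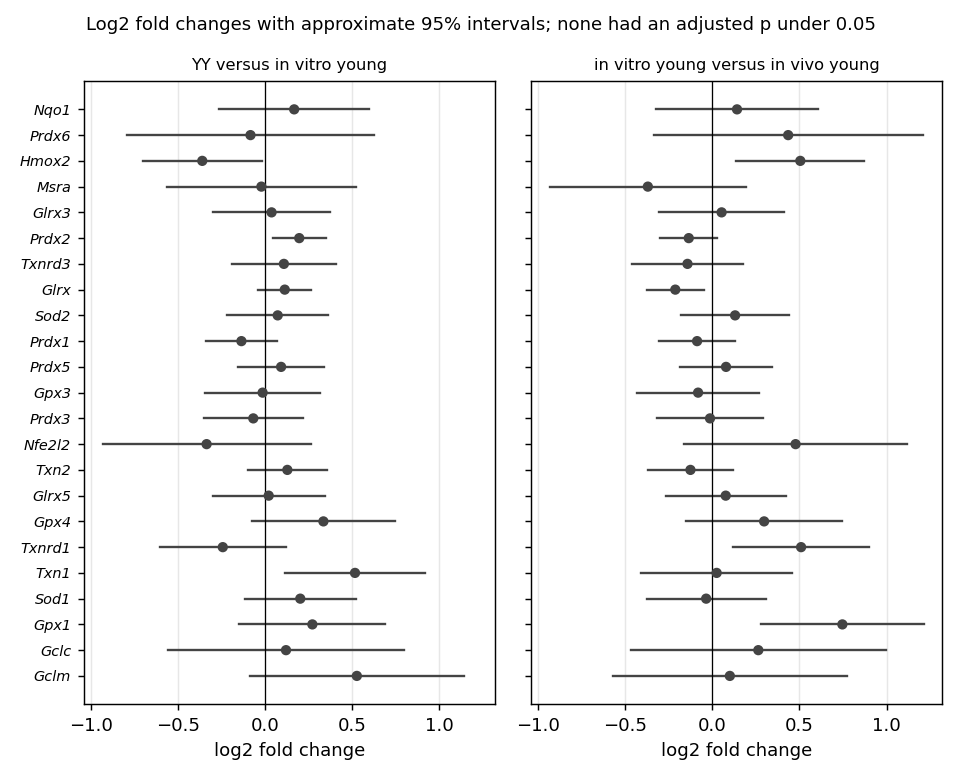
Log2 fold change (x axis) with approximate 95% interval of the 23 tested members (rows, ordered as in the chimeric comparisons) in YY versus in vitro young and in in vitro young versus in vivo young. None had an adjusted p under 0.05, and Gpx1 had the estimate farthest from 0 in the right panel, at 0.75.

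Across all 5 groups, the ratio of the highest to the lowest group mean was under 1.2 in 5 tested members, under 1.5 in 14 and under 2 in 20. Glrx5 had the smallest ratio, 1.09, but this rests on all YY libraries together. Within YY, Glrx5 averaged 65.25 CPM in S198 to S202 and 104.7 CPM in S225 to S231. Gclc (2.698), Gclm (2.23) and Gpx1 (2.11) had the largest ratios. In the chimeric fit Gclc reached the level of the filter in 6 libraries, 5 of them YY, and Gclm in 11, 7 of them YY. YY also had their highest means, so their place in this ranking depends in part on the filter. Oocytes of a group differed least in Glrx and Prdx2, whose coefficient of variation was 5.63% in AA for Glrx and 5.36% in AY and 5.77% in YY for Prdx2. In AA and YY the coefficient was largest in Gclc, at 78.9% in AA and 66.3% in YY, and in AY in Nfe2l2, at 64.6%. These genes held few counts, and counting alone gives 53.5% for Gclc in AA, 36.0% for Gclc in YY and 38.7% for Nfe2l2 in AY. The median coefficient over the 23 members was 25.3% in AY, 25.9% in AA, 27.9% in YY, 20.6% in in vitro young and 27.1% in in vivo young oocytes. That spread was 1.51 to 2.06 times what counting alone gives, taken as the median over members in each group.

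Of the members not called in any of the 5 comparisons with all libraries, Prdx3 had group means of 50.8 to 58.4 CPM, Prdx5 of 74.4 to 91.5 CPM, Prdx6 (a peroxiredoxin with a single catalytic cysteine) of 10.8 to 19.3 CPM and Sod2 of 55.5 to 76.7 CPM. Txnrd3, the thioredoxin-glutathione reductase, had means of 31.3 to 38.4 CPM and Txnrd1 of 24.01 to 37.3 CPM. Glrx3, a glutaredoxin of iron handling, had means of 35.5 to 41.7 CPM, Glrx5 of 79.4 to 86.8 CPM, and Msra, which reduces methionine sulfoxide, of 13.5 to 19.7 CPM. Gpx4, which reduces lipid hydroperoxides in membranes, had means of 19.3 to 29.4 CPM, but the pseudogene Gpx4-ps2 held 2703 counts against 1037 for Gpx4, so how reads were split between them is uncertain.

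The 11 members below the filter held few reads. Group sums of counts are given for them, lowest and highest, and these sums also depend on the number and depth of the oocytes in a group. Cat held between 4 counts (in vivo young) and 8 counts (AY) per group. Prdx4, the peroxiredoxin of the endoplasmic reticulum, held between 43 (YY) and 81 (in vitro young), and Glrx2, a mitochondrial glutaredoxin, between 32 (AY) and 59 (in vitro young). Both remaining enzymes of the glutathione group were as scarce. Gsr, glutathione reductase, held between 7 (AY) and 25 (in vitro young) counts, and Gss, glutathione synthetase, which adds glycine after the ligase step, between 8 (AY) and 31 (in vitro young). The NRF2 inhibitor Keap1 held between 8 (AY) and 36 (in vitro young) counts. Hmox1, the inducible heme oxygenase, never exceeded 6 counts in a group (YY), Gpx7 never 13 (in vivo young), Gpx8 never 5 (AA) and mitochondrial Txnrd2 never 13 (in vivo young). Gpx8 was at 0 in YY and in vitro young oocytes. Srxn1 held 1 count in all, in an AA oocyte. A sum of 0 still allows 3 counts, which is 0.607 CPM over AY, 0.300 over AA, 0.347 over YY, 0.321 over in vitro young and 0.334 over in vivo young oocytes. These limits cover counting error only, and differences in these 11 genes were not tested.

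Of 77 tested redox genes outside the 34 members, in 6 lists, 26 were called in AA against YY (12 higher and 14 lower), where 27.5% of all genes were. Among 10 tested regulators and partners of NRF2, 1 was higher and 4 were lower. Cul3, the scaffold of the ubiquitin ligase that KEAP1 uses to degrade NRF2, averaged 18.9 CPM in AA and 48.2 CPM in YY (log2 fold change -1.35 ± 0.22, edgeR adjusted p = 1.39e-05). Btrc, a subunit of another NRF2-degrading ligase, averaged 517 CPM in AA and 362 CPM in YY (0.51 ± 0.11, edgeR adjusted p = 9.15e-04). The related factor Nfe2l1 averaged 20.4 CPM in AA and 36.2 CPM in YY (-0.86 ± 0.24, edgeR adjusted p = 0.00683), but its log2 fold change was -0.16 against S198 to S202 alone (edgeR adjusted p = 0.816), and it was not called in the limma fit with related libraries (adjusted p = 0.132).

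In the NADPH supply list 4 of 10 tested genes were higher in AA than in YY and 1 was lower. Mitochondrial malic enzyme Me2 averaged 211 CPM in AA and 120 CPM in YY (0.81 ± 0.11, edgeR adjusted p = 1.61e-06), and G6pdx, which opens the pentose phosphate pathway, 493.05 CPM in AA and 407 CPM in YY (0.27 ± 0.07, edgeR adjusted p = 0.00330). The folate enzyme Mthfd1 was the lower one, with 45.9 CPM in AA against 68.4 CPM in YY. Among 15 tested genes of glutathione S-transferases and glutathione turnover, 3 were higher (Gstm5, Gsta4 and the cystine transporter subunit Slc3a2) and 1 was lower. Gstm5 averaged 205 CPM in AA and 147 CPM in YY (0.48 ± 0.09, edgeR adjusted p = 1.70e-04). Gstm5 belongs to a family of related genes, and how reads shared between genes were handled was not given in the sources used here.

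Selenoprotein genes gave 0 higher and 2 lower of 12 tested, Selenot (26.8 CPM in AA and 47.6 CPM in YY) and Sephs2, which makes the selenium donor. Thioredoxin-like and stress redox genes gave 2 higher and 4 lower of 19, among them the lower Txndc5, a protein disulfide isomerase (-0.55 ± 0.10), Txnip, which binds thioredoxin (-0.46 ± 0.10), and Oxr1 (-1.47 ± 0.33). Iron and heme genes gave 2 higher (Alas1 and Fech, the first and last enzymes of heme synthesis) and 2 lower of 11, with the iron chaperone Pcbp1 averaging 45.5 CPM in AA against 119 CPM in YY (-1.41 ± 0.24, edgeR adjusted p = 7.18e-05). Against YY libraries S198 to S202 alone, Cul3, Me2, Gsta4 and Gstm5 of these 77 genes were called. In the limma fit with related libraries the lists gave 1 higher and 1 lower (NRF2 partners), 3 and 0 (NADPH supply), 2 and 0 (glutathione S-transferases and turnover), 0 and 1 (selenoproteins), 1 and 4 (thioredoxin-like) and 1 and 1 (iron and heme).

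In AY against AA, 4 of the 77 redox genes outside the members were higher and 0 were lower, where 6.59% of all genes were called. Cul3 averaged 36.6 CPM in AY and 18.9 CPM in AA (0.97 ± 0.26, edgeR adjusted p = 0.0186), and Txndc5 averaged 151 CPM in AY and 111 CPM in AA (0.45 ± 0.12, edgeR adjusted p = 0.0188). The other two were Txndc11 (0.80 ± 0.25) and biliverdin reductase Blvra (0.54 ± 0.15). In the limma fit that treated libraries with the same on or off pattern as related, these 4 had adjusted p-values of 0.118 (Txndc5) to 0.180 (Blvra). AY against YY called Me2 alone, where 1.62% of all genes were called, at 185 CPM in AY and 120 CPM in YY (0.61 ± 0.13, edgeR adjusted p = 0.00878). Its adjusted p was 0.201 against S198 to S202 alone and 0.128 in the limma fit with related libraries. YY against in vitro young called Gstm5 alone, where 2.48% of all genes were called, at 147 CPM in YY and 193 CPM in in vitro young oocytes (edgeR adjusted p = 0.0475). Gstm5 was no longer called with S198 to S202 alone (edgeR adjusted p = 0.162), with S225 to S231 alone (edgeR adjusted p = 0.0534), in the limma fit with related libraries (adjusted p = 0.165), with library totals in place of TMM, with genes detected as a covariate or with the replicate block. In vitro young against in vivo young called 0 of 77, where 0.137% of all genes were called.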

How the data were processed

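The deposited values were raw counts of reads per gene, in whole numbers. STAR 2.7.8a, HTSeq 0.11.0 and mm39 were used, per the submitters' processing notes, and the handling of strand and of shared reads was not given in the sources used here. Without molecular identifiers, counts can include copies of amplified cDNA. The members and companion lists were chosen with earlier results of these data known.

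Tests used edgeR 4.0.16 (R 4.3.3) with TMM scaling, a low-count filter by group (filterByExpr, minimum count 10 and minimum total 15), robust quasi-likelihood fitting and adjustment over all genes by Benjamini-Hochberg. AA, AY and YY were fitted together (29 libraries, 8533 genes), as were YY and the controls (27 libraries, 8749 genes). The filter admits genes that are high in a single group. SEs came from the F statistic, and 95% intervals assume normal errors. TPM used exon lengths of GENCODE M21 (GRCm38), found by gene identifier for all 34 members. The scripts were tested on simulated data. No libraries appeared to be deposited more than once (chi-square per degree of freedom at least 1.98 between libraries of a group).

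Members called in any comparison are named with full values, other tested members by ranges, untested members by counts, and from each companion list up to 3 called genes per comparison. Replicate numbers did not pair the samples. Alternatives used DESeq2 1.42.0, limma 3.58.1 and other filters, scalings and library sets.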

Additional observations from a re-analysis of the deposited data

Results flagged for a closer look

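Of 69 sets of values (the tested members in each group of 6 to 8 oocytes), 4 held an oocyte that stood apart from the rest of its group by Dixon's test, and chance gives about 1 in 20. Sod1 was at 183.1 CPM in in vitro young replicate 2, where the next highest oocyte was at 126.6 CPM. The same oocyte had the lowest Glrx of its group, at 978.1 CPM, where the next lowest was at 1257 CPM. Txn1 was at 79.53 CPM in in vivo young replicate 6, where the next highest was at 48.04 CPM. Glrx3 was at 60.42 CPM in in vivo young replicate 5, on 25 counts, where the next highest was at 37.15 CPM.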

How the results depend on the processing

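The call of 3 lower members in AA against YY became 0 against YY libraries S198 to S202 alone, where Sod1 had a log2 fold change of 0.01291, 0 when libraries of a group with a shared on or off pattern were treated as related (limma voom), 5 with library totals in place of TMM and 1 with the replicate block (Sod1; Gclm and Gclc no longer passed the filter there or with only both compared groups in the fit). Leaving out 1 library gave 1 to 4 members. The other alternatives gave 2 to 4.

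In other comparisons 0 members became 1 in AY against AA with the replicate block and, for the same libraries without the block term, also 1 (Gpx3), 1 in AY against YY with YY libraries S225 to S231 alone (Gclm), and 1 in YY against in vitro young (Txn1) with S225 to S231 alone, with genes detected as a covariate, and with limma voom and quality weights. In vitro young against in vivo young kept 0 in every alternative run.

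AA against YY called 2348 genes, 451 with S198 to S202 alone, 1081 with the pattern block and 1961 to 2514 with 1 library left out. No alternative called more than 3151. AY against AA called 562, 876 with only those groups fitted, 80 with the pattern block and 203 to 607 with 1 library left out (203 without AY replicate 1 and 306 without AY replicate 6). AY against YY called 138, 847 with S225 to S231 alone, 236 without the low-count filter, 79 with only those groups fitted, 22 with the pattern block, 67 in the libraries of the replicate block without its term, and 84 to 155 with 1 library left out (84, 85 and 88 without AY replicates 5, 2 and 4).

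YY against in vitro young called 217, 404 with DESeq2, 99 with S198 to S202 alone, 803 with S225 to S231 alone, 378 with all 45 libraries fitted, 108 with genes detected as a covariate, 532 with voom and quality weights, 88 with the pattern block, 43 with the replicate block, 126 in the same libraries without its term, and 114 to 352 with 1 library left out (352 without in vitro young replicate 3, and 114 to 130 without replicates 5 to 8). In vitro young against in vivo young called 12, 44 with DESeq2, 29 with all 45 libraries fitted or without the low-count filter, 37 with voom, 20 with library totals, with only those groups fitted or in the libraries of the replicate block without its term, 0 with the covariate or the pattern block, and 0 to 18 with 1 library left out. The causes of these shifts were not tested.

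Deviations of same-numbered oocytes correlated at -0.201 to 0.25 over the comparisons, and not every pair was over 0.1, so the replicate numbers were not used as pairs. The pseudogene and same-library alternatives were chosen after seeing the data. Of the tested members Gclc held the fewest counts, 294 in 45 libraries.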
